A study of Mus musculus with 15 samples.

Results

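The 2′-5′-oligoadenylate synthetases (Oas) and their relatives (Oasl) are a family of mouse genes on chromosome 5. Macrophages with and without targeted deletion of both genes of the histone variant H3.3 were compared here. The 8 members described one by one were Oas1a, Oas1b, Oas1c, Oas1g, Oas2, Oas3, Oasl1 and Oasl2. A called region counted for a member when it lay over the gene body or the 5 kb upstream of its start, and 133 of the 479596 regions in the 10 lists did so. The members were chosen by the coverage of their windows in these same WT and cKO lists, so the values that follow are descriptions and carry no test. In both knockout libraries regions of acetylated histone H3 lysine 27 (H3K27ac) covered more of the window than in either control library at all 8 members, and no member had a region that both controls held and both knockout libraries lacked. Regions of trimethylated lysine 36 (H3K36me3) did the same at 6 members, and at Oasl1 they were present in the knockout libraries alone.

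The synthetases bind double-stranded RNA, a sign of viral infection, and join ATP into short 2′-5′-linked oligoadenylates. The oligoadenylates act as an antiviral signal inside the cell, and the family is best known as a target of type I interferon, whose receptor acts through Jak1, Tyk2, Stat2 and Irf9. H3K27ac marks active promoters and enhancers, H3K36me3 is laid down over the bodies of transcribed genes, and H3.3 is placed into chromatin outside DNA replication, largely at active genes.

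Bone marrow-derived macrophages of 8 to 10-week-old male and female mice on a C57BL/6 background were profiled by CUT&RUN, which sequences the DNA that a nuclease, tethered to an antibody, cuts loose around its target. The series holds 15 samples, of which 10 have a region list, 2 in each of 5 groups, and 5 are IgG controls without one. WT cells carried H3f3a fl/fl and H3f3b fl/fl, both H3.3 genes floxed, without Cre. cKO cells carried the same floxed alleles with LysM-Cre, which is expressed from the Lyz2 locus in macrophages and granulocytes. H3.3-HA cells came from another line, with an HA tag on the H3f3b product and neither gene deleted, so H3.3 made from H3f3a was not seen. Cells were grown for 6 to 8 days in L929-conditioned medium, the H3.3-HA cells to day 7. WT and cKO were each profiled for H3K27ac and H3K36me3. The effect of Cre itself cannot be told apart from that of the deletion, since WT mice lacked it. The replicates are labelled as biological, and with 2 libraries against 2 an exact permutation test cannot give a p below 0.333, another reason why none is printed.

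The libraries held 5365319 to 6951296 tags for H3.3-HA and 14027132 to 29988098 for the histone marks. For H3K36me3 both cKO libraries were deeper, with 23782914 and 23503055 tags against 15086387 and 14027132 in WT. For H3K27ac the ranges overlapped, at 29988098 and 25560110 tags in cKO and 28366343 and 16444864 in WT. The part of this depth in the results was not tested. The cKO lists were the smaller ones, covering 46.2 and 62.0 Mb for H3K27ac against 89.6 and 74.8 Mb in WT. For H3K36me3, cKO replicate 1 stood apart with 19.3% of its tags in regions and 90.7 Mb covered, against 46.5% to 50.2% and 163 to 170 Mb in the other 3. Regions were called against an IgG library of the same genotype, so the control differed along with the group. Of 8 macrophage marker genes, 6 had an H3K27ac region and 7 an H3K36me3 region in all 4 libraries, against 39.5% and 42.1% of all protein-coding genes. H3K36me3 was at 0 over the neutrophil, T cell, erythroid and fibroblast markers in every library, and at most 2.32 and 2.37 points summed over those of B cells and dendritic cells. H3K27ac was present at some of them: summed over the list it reached 22.5 to 36.5 points at 6 neutrophil markers in the 4 libraries, 14.6 to 37.6 at 3 B cell markers, at most 9.55 at 3 erythroid and 2.06 at 3 dendritic ones, and 0 at 3 fibroblast ones. Of the 3 T cell markers Cd3d alone had H3K27ac, 0% and 0% in WT and 8.56% and 13.2% in cKO. Of the macrophage markers 4 had less H3K27ac in both cKO libraries and 1 had more, against 22.3% and 10.1% of all protein-coding genes. Lyz2, the site of the Cre, was at 94.2% and 88.4% in WT and 28.1% and 24.4% in cKO. The part of other cell types in the results was not tested. The lists do not check the deletion: the H3f3a window was covered by H3K27ac for 11.9% and 11.9% in WT and 22.4% and 19.7% in cKO, and the H3f3b window for 58.3% and 52.3% in WT and 65.2% and 85.5% in cKO. The paper reports that deletion of H3f3b varied, being complete in some cKO samples and partial in others. How far it went in these libraries was not tested.

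The members lie in 2 stretches of the mm10 genome (GRCm38, GENCODE M21). Oasl2 (ENSMUSG00000029561, chr5:114896936-114912234, plus strand) is followed after 11 kb by Oasl1 (ENSMUSG00000041827, chr5:114923240-114937915, plus strand). The Oas cluster lies 5.79 Mb further on and spans 191 kb. It holds Oas2 (ENSMUSG00000032690, chr5:120730333-120749853), Oas3 (ENSMUSG00000032661, chr5:120753098-120777661), Oas1c (ENSMUSG00000001166, chr5:120800194-120812514), Oas1g (ENSMUSG00000066861, chr5:120876142-120887613) and Oas1a (ENSMUSG00000052776, chr5:120896256-120907521) on the minus strand, and Oas1b (ENSMUSG00000029605, chr5:120812635-120824163) on the plus strand. Oas1b and Oas1c start 121 bp apart and point away from each other. Oas1b is annotated as a polymorphic pseudogene, and so is not among the 21938 protein-coding genes used below as background. Some windows overlap: that of Oas2 reaches into Oas3, that of Oas1c into Oas1b, and that of Oas1b into Oas1c, so a region there was counted for both.

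Most of the start sites had nearby a sequence that the choice of members did not use, the interferon-stimulated response element (ISRE), searched on both strands as GAAA, 2 bases of any kind and GAAA again, with overlapping matches allowed. Of the 6 members with a 300-base promoter in the RefSeq table (GRCm38.p6, 250 bases before to 50 after the start), 4 held a match: Oas1a, Oas1c, Oas1g and Oas3. Over all 32851 promoters of the table the share was 3.44%. The second interferon motif, GAS (TTCNNNGAA, which reads the same on both strands), was found in 1 of the 6, Oas1a, against 8.30% of all promoters. The promoters of Oasl1 and Oasl2 held neither, and those of Oas2 and Oas1b are not in the table. The stretches below lie at the start sites inside H3K27ac regions and are shown because they carry the ISRE match, in capitals. Each is written 5′ to 3′ on the strand of its gene.
Oas1a (chr5:120907520-120907555, minus strand): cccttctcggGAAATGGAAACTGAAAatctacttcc
Oas1g (chr5:120887606-120887641, minus strand): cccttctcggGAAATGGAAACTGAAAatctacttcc
Oas1b (chr5:120812603-120812638, plus strand): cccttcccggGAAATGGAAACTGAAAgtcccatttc
Oas3 (chr5:120777715-120777744, minus strand): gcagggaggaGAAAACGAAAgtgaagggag
Oas2 (chr5:120749905-120749934, minus strand): cacacttgagTTTCGATTTCctaggttcct
Oasl1 (chr5:114922957-114922986, plus strand): gactaggctcTTTCTCTTTCcaaacctcag
The 16 capitals of Oas1a, Oas1g and Oas1b are the same and hold 2 overlapping matches. They begin 24, 18 and 22 bp before the respective start sites. The Oas1b stretch also lies 114 bp before the start of Oas1c, which reads it on the other strand. The matches of Oas3, Oas2 and Oasl1 begin 73, 71 and 273 bp before the start.

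All 7 distinct H3K27ac regions over the 8 start sites held an ISRE match, but they are wide. Windows of the same width centred on each of the 89774 merged H3K27ac regions of the genome held 1 in 26.4% for the width at Oas1a, 28.7% at Oas1b and Oas1c, 39.7% at Oas2, 40.6% at Oasl2, 43.6% at Oas3, 60.4% at Oas1g and 71.3% at Oasl1. The 3 matches in the Oasl2 region lay inside the gene, the first 533 bp after the start. A match is a run of letters and was not tested as a binding site.

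Near-identical sequence limits how the Oas1 genes can be told apart with 25-base reads. Of the 25-base words in the Oas1a window only 49.2% occur once in the genome, and 41.2% occur also in the window of another family gene. For Oas1g these shares were 52.9% and 38.9%. Oas1b and Oas1c were at 78.5% and 78.3% unique words, Oasl2 at 71.4%, and Oas2, Oas3 and Oasl1 at 86.6% to 89.6%. Regions at Oas1a and Oas1g are uncertain for this reason.

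Of the 8 members, 6 carried a gained H3K27ac region, that is, a merged region of the 4 libraries in which cKO replicates 1 and 2 had a call and the WT replicates had none: Oas1a, Oas1b, Oas1c, Oas1g, Oas3 and Oasl2, with Oas1b and Oas1c sharing the same one. Over all protein-coding genes 10.1% carried a gained region, or 18.8% of those with at least 2 of the 4 libraries calling a region in the window. A lost region, the opposite case, was found at 0 members and at 21.7% of all genes. H3K27ac covered more of the window in both cKO than in both WT libraries at 8 of 8 members, against 10.1% of all genes, or 19.0% of the genes called in at least 2 libraries. With the gene body alone it was 7 of 8, since Oas1c overlapped. Less coverage in both cKO libraries was seen at 0 members and 22.3% of all genes. The members' differences between the means had a median of 8.12 percentage points, from 3.77 to 38.1, where all genes had a median of 0 and a mean of -1.03. No base of any member window was covered in both WT libraries and in neither cKO library. Both marks were present at 7 members in all 4 libraries, the exception being Oasl1, and over all genes this held for 39.5% (H3K27ac) and 42.1% (H3K36me3). The start site itself lay in an H3K27ac region in all 4 libraries at 5 members, Oas1a, Oas1b, Oas1c, Oas3 and Oasl2, and at 8.62% of all genes. A called region does not tell whether more cells carry a mark or each cell carries more of it, and these cannot be told apart here.

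**Figure D1:**
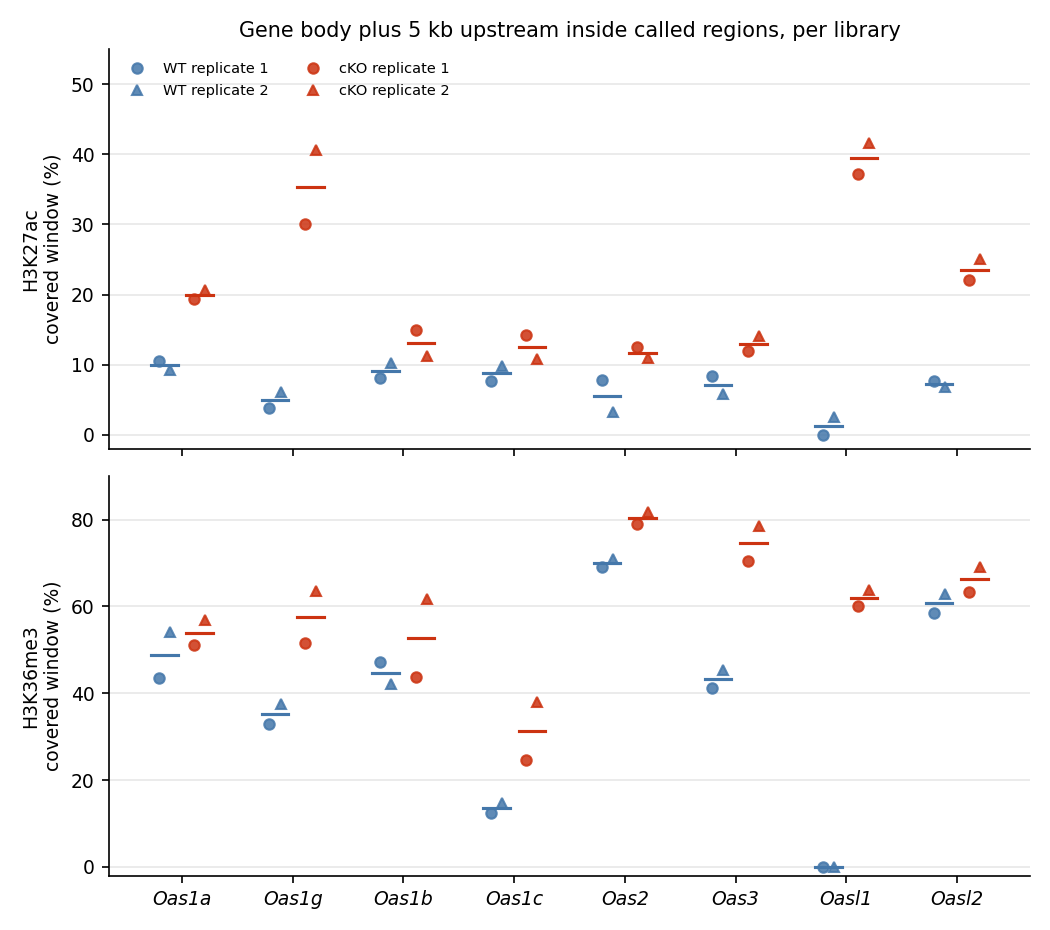
The percentage of each member's window (gene body plus 5 kb upstream) inside called regions is plotted for the 2 WT (blue) and 2 cKO (red) libraries, with a bar at the mean, for H3K27ac above and H3K36me3 below. The cKO points lie above the WT points at all 8 genes for H3K27ac, and the points overlap at Oas1a and Oas1b for H3K36me3.

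H3K36me3 gave a gained region at 1 of 8 members, Oasl1, against 4.62% of all genes and 9.01% of those called in at least 2 libraries, and a lost region at 0 members against 12.9%. Coverage by H3K36me3 was greater in both cKO than in both WT libraries at 6 members, where 4.28% of all genes were, or 8.40% of genes called in at least 2 libraries. With the gene body alone it was greater at 5 of 8, since Oas2 overlapped. Coverage of the window was lower in both cKO libraries at 0 members and at 20.6% of all genes. The members' median difference was 14.0 points, from 5.14 to 62.0, and over all genes the median was 0 and the mean -3.50. The same 6 members, Oas1c, Oas1g, Oas2, Oas3, Oasl1 and Oasl2, had more coverage of both marks, as did 1.26% of all genes. The other members were Oas1a and Oas1b. Without cKO replicate 1, the library that stood apart, their differences were 8.05 and 17.1 points. Without cKO replicate 2 they were 2.23 and -1.05 points.

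**Figure D2:**
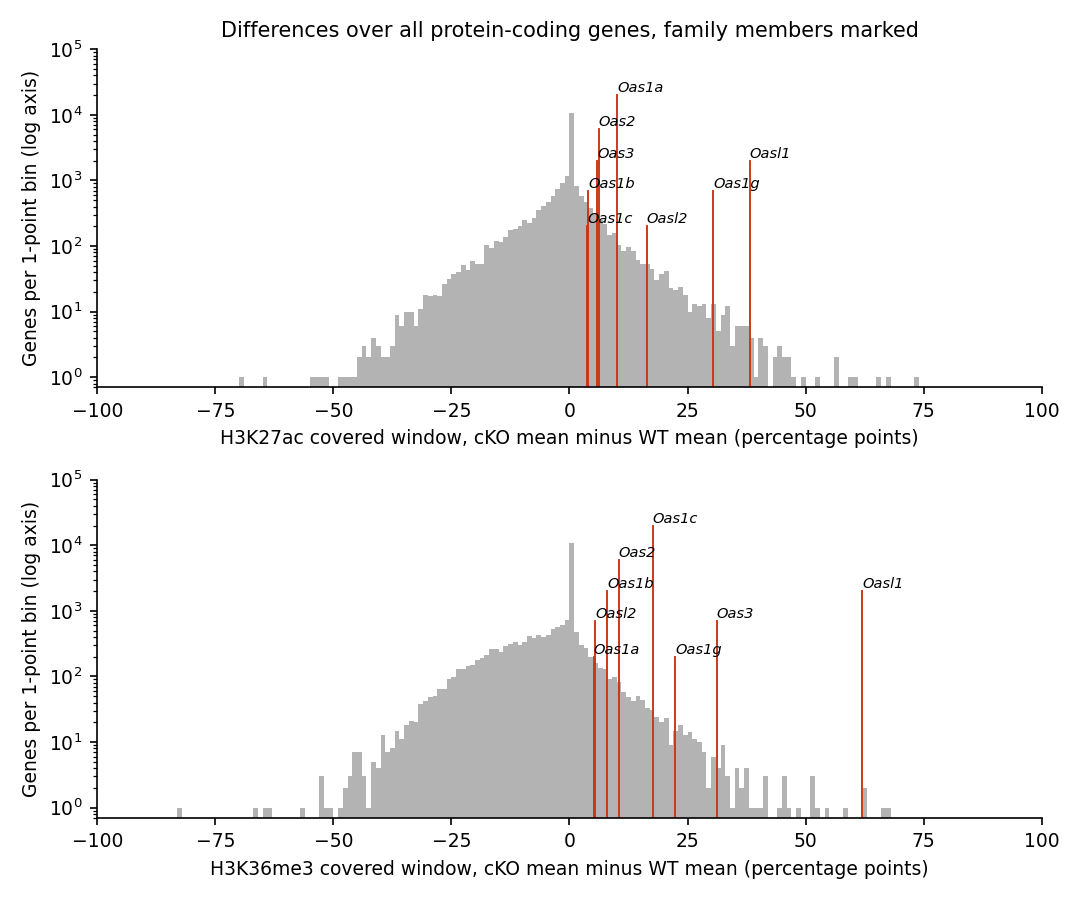
Grey bars count protein-coding genes by the difference in covered window between the cKO mean and the WT mean, in bins of 1 percentage point on a logarithmic vertical axis, and red lines mark the 8 members. The members lie to the right of 0 for both marks, from 3.77 to 38.1 points for H3K27ac and from 5.14 to 62.0 points for H3K36me3.

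Oasl1, which binds RNA but lacks synthetase activity and is known to hold back translation of Irf7, differed most between the genotypes in this window. H3K27ac covered 0% and 2.55% of its window in the WT libraries and 37.2% and 41.7% in the cKO libraries. The groups were far apart, at 1.27% ± 1.80 and 39.4% ± 3.21 (SD, n = 2 each), a difference of 38.1 points that ranked 28th from the top among all genes. With the gene body alone the difference was 24.0 points, below the 28.5 of Oas1g, and with 20 kb on both sides 12.3 points, below Oasl2, Oas1a and Oas1g at 19.0, 15.01 and 14.9. Most of the cKO coverage was a broad region over the start site, 6671 and 8202 bp wide, which reached 3809 and 4645 bp upstream and 2861 and 3556 bp into the gene. The antisense gene Gm13822 also overlaps the Oasl1 window. Replicate 1 had a second region of 639 bp, 11.1 to 11.7 kb into the gene. The broad region was not counted as gained only because WT replicate 2 held a 501 bp region (chr5:114922573-114923073) ending short of the start site.

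Over the Oasl1 body H3K36me3 had no region in either WT library. In cKO it covered 60.1% and 63.8% of the window, and 80.6% and 85.6% of the gene body. That difference of 62.0 points was the 3rd largest of all genes. Of all genes 0.666% had, like Oasl1, no H3K36me3 region in WT and one in both cKO libraries. The merged region (chr5:114925353-114939287, 13935 bp) began 2257 and 2113 bp after the start in the cKO libraries and ran past the end of the gene, so that it met the inner part of the H3K27ac region. The library that stood apart, cKO H3K36me3 replicate 1, was the one with 60.1%.

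Oasl2, which pairs synthetase activity with ubiquitin-like domains, already had both marks in WT. H3K27ac covered 7.62% and 6.79% of the window in WT and 22% and 25% in cKO, so the cKO libraries were well above both WT ones. The region over its start was 1546 and 1379 bp wide in WT and 3298 and 3263 bp wide in cKO, reaching farther on both sides. A gained region of 1343 bp (chr5:114899746-114901088) lay 2.81 to 4.15 kb into the gene, over an exon. H3K36me3 covered 58.6% and 63.0% in WT and 63.4% and 69.1% in cKO, groups that did not overlap but were separated by less than the spread within either.

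**Figure D3:**
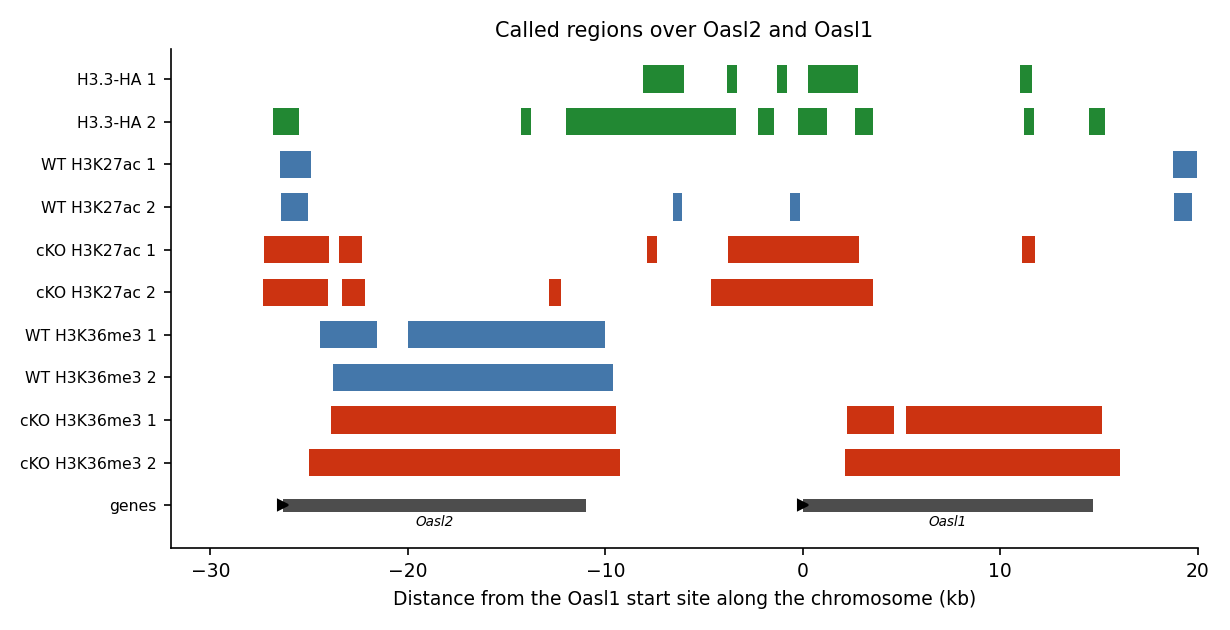
Called regions of the 10 libraries are drawn against distance in kb from the Oasl1 start site, with H3.3-HA in green, WT in blue and cKO in red, and the genes below with an arrowhead at the start. In the Oasl1 window the blue rows hold only 1 region of 501 bp, just before the start, whereas both cKO libraries have a broad H3K27ac region at the start and H3K36me3 over the body.

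In the Oas cluster, Oas3, the longest of the family here at 24.6 kb and a strong binder of long double-stranded RNA, differed most in H3K36me3. H3K36me3 covered 41.2% and 45.5% of the window in WT and 70.6% and 78.5% in cKO, a difference of 31.2 points that ranked 47th of all genes. In WT it was broken into 6 and 5 regions, and in cKO into 3 and 1. Its first covered base lay nearer to the start in cKO, at 2473 and 1347 bp, than in WT, at 3825 and 3765 bp. The part of the greater depth of the cKO H3K36me3 libraries in these differences was not tested.

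H3K27ac at Oas3 covered 8.43% and 5.75% in WT and 11.9% and 14.0% in cKO. Its start site lay inside a region in all 4 libraries, one 1991 and 1701 bp wide in WT and 2824 and 3190 bp wide in cKO. The gained region of 959 bp (chr5:120779434-120780392) lay 1.77 to 2.73 kb upstream of the start. Among the 6 gained H3K27ac regions of the family it was the only one over which both H3.3-HA libraries had a region, for 580 and 738 bp. It holds an ISRE match, the only one among the 6 gained regions, in capitals here on the plus strand.
Upstream of Oas3 (chr5:120779700-120779749): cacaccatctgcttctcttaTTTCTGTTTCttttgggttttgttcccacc
None of the 6 gained regions held the motif in its central 300 bases, where 5.04% of all merged H3K27ac regions did.

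Oas2, also a synthetase, had H3K27ac over 7.85% and 3.23% of its window in WT and 12.6% and 10.9% in cKO. Its start site was inside a region in WT replicate 1 and in both cKO libraries, and in WT replicate 2 the region began 216 bp after it. Like Oasl1, Oas2 had no gained H3K27ac region. H3K36me3 covered 69.1% and 70.8% of the window in WT and 79.0% and 81.7% in cKO. Over the Oas2 body alone the means were 84.4% ± 1.22 and 85.1% ± 5.17 (SD, n = 2 each), which overlapped, so the difference lay in the upstream part, where the window runs into Oas3.

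**Figure D4:**
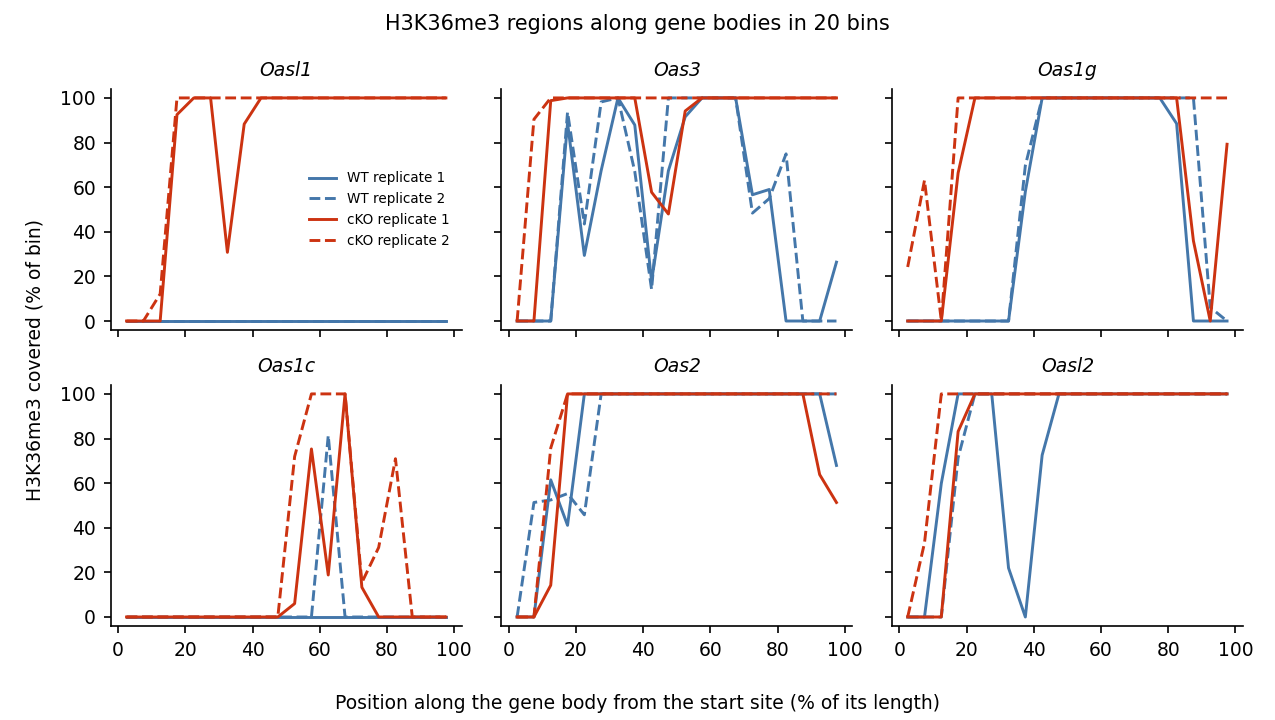
The share of each of 20 equal parts of the gene body inside H3K36me3 regions is plotted from the start site to the end of 6 genes, for WT (blue) and cKO (red) replicates 1 (solid) and 2 (dashed). The cKO lines rise nearer to the start than the WT lines at Oas3 and Oas1g, lie above a WT line at 0 along Oasl1, and run with the WT lines along most of Oas2.

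Oas1g and Oas1a are close copies. At Oas1g H3K27ac covered 3.81% and 6.08% of the window in WT and 30.1% and 40.6% in cKO, a difference of 30.4 points and 79th from the top of all genes. Its start site was outside every WT region and inside a region of both cKO libraries, 1923 and 5936 bp wide. Both WT libraries held regions of 501 or 627 bp inside the gene, which shared no base, and for that reason the merged region of 6022 bp counted as present in all 4. The gained region (chr5:120890840-120891669, 830 bp) lay 3.23 to 4.06 kb upstream. H3K36me3 covered 33.0% and 37.5% of the window in WT and 51.6% and 63.5% in cKO. Its first covered base was 4259 and 4192 bp after the start in WT and 1915 and 435 bp in cKO. The 435 bp came from a separate region of 501 bp in cKO replicate 2, and the long region of that library began 1721 bp after the start.

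At Oas1a H3K27ac covered 10.6% and 9.26% in WT and 19.3% and 20.6% in cKO, so the groups lay apart by more than their spread. The region over the start hardly differed, at 1717 and 1507 bp in WT and 1703 and 1886 bp in cKO. The added coverage came from 2 gained regions in introns (chr5:120903354-120903900, 547 bp, and chr5:120904474-120905577, 1104 bp), in which 46.7% and 32% of 25-base words were unique. H3K36me3 covered 43.6% and 54.0% in WT and 51.1% and 56.9% in cKO, ranges that overlapped.

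Oas1b, known for flavivirus resistance and truncated in many laboratory strains, and Oas1c shared their start region of 2107 bp (chr5:120811879-120813985). It was 1338 and 1688 bp wide in WT and 1834 and 1204 bp in cKO, which overlapped. H3K27ac covered 8.09% and 10.2% of the Oas1b window in WT and 14.9% and 11.3% in cKO. For Oas1c the values were 7.72% and 9.75% in WT and 14.2% and 10.8% in cKO. Over the Oas1c body alone the values overlapped, at 1.41% and 1.76% in WT and 5.16% and 1.42% in cKO. The window gaps were small, and both rested on the one gained region (chr5:120815424-120816158, 735 bp), in an intron of Oas1b and 2.91 to 3.64 kb upstream of Oas1c.

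H3K36me3 over Oas1b covered 47.3% and 42.2% in WT and 43.7% and 61.8% in cKO, with cKO replicate 1, the library that stood apart, inside the WT range. The Oas1c body was the least covered of the family after Oasl1 in WT, at 0% and 4.07%, and stood at 10.67% and 24.5% in cKO. Over its whole window, part of which is Oas1b, the values were 12.5% and 14.8% in WT and 24.6% and 38% in cKO.

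**Figure D5:**
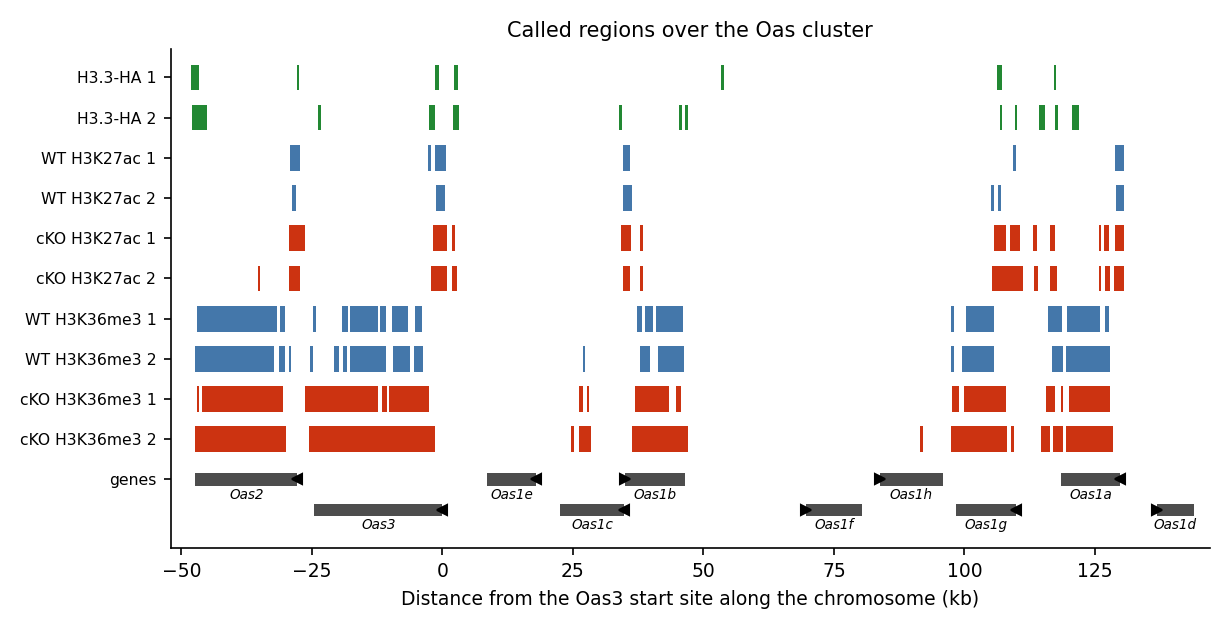
Called regions of the 10 libraries are drawn over the Oas cluster against distance in kb from the Oas3 start site, in the same colours, with genes below on 2 levels. The cKO rows show wider H3K27ac regions at Oas1g and longer H3K36me3 regions over Oas3, and all rows are nearly empty over Oas1e, Oas1f, Oas1h and Oas1d.

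The 4 Oas1 genes of the cluster that are no members, Oas1d, Oas1e, Oas1f and Oas1h, lie among these. Oas1d, Oas1e and Oas1f had no region of any kind in their windows in any of the 10 libraries. Oas1h had 1 region of 501 bp, for H3K36me3 in cKO replicate 2. The share of 25-base words that occur once in the genome was 58.6%, 67.8%, 78.1% and 72.7% for Oas1d, Oas1e, Oas1f and Oas1h, no lower than at Oas1a and Oas1g.

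H3.3-HA regions were found at 4 of 8 members in both libraries, Oas1g, Oas2, Oas3 and Oasl1, where 44.2% of all genes had one in both. At least 1 library had a region at 8 members and at 56.7% of all genes. Oasl1 was covered most, for 21.2% and 28.0% of its window, and Oas1g, Oas2 and Oas3 for 5.28% to 12%. At Oas1a, Oas1b, Oas1c and Oasl2 H3.3-HA was in replicate 2 only, for 8.61%, 7.60%, 3.64% and 13.9%. Over Oasl1 63.8% of the bases with H3.3-HA in either library lay in H3K27ac regions of both cKO libraries. Those regions covered 37.2% and 41.7% of the whole window. WT H3K27ac replicate 1 had no region there, so no share in both WT libraries could be above 0. A link between H3.3-HA and the cKO regions was not tested. The widest H3.3-HA region, 8597 bp in replicate 2, spanned the end of Oasl2 and most of the gap before Oasl1. A missing region in these libraries, the shallowest of the series, says only that none was called at this depth.

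Genes that act with the family did not show one direction. In a list of 10 genes of the 2-5A pathway and interferon signalling, H3K27ac coverage was higher in both cKO libraries at 4 genes and lower in both at 2. Over all genes these shares were 10.1% and 22.3%. A gained region was found at 1 of the 10 and lost ones at 4, against 10.1% and 21.7% of all genes. The median difference was 1.68 points. The higher ones were Stat2, Irf7, Ifnar1 and Tyk2. Stat2, a subunit of the factor that binds the ISRE, was covered for 0% and 1.84% in WT and 14.0% and 13.9% in cKO. Irf7, the interferon regulatory factor that Oasl1 acts on, was covered for 9.06% and 5.71% in WT and 23.7% and 15.2% in cKO. The groups did not overlap at either gene.

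The lower ones were Jak1 and Irf1. Jak1, a kinase of the interferon receptor, was covered for 29.6% and 30.5% in WT and 8.97% and 11.7% in cKO. For H3K36me3, 0 of the 10 were higher in both cKO libraries and 4 were lower (Pde12, Ifnar1, Irf9 and Irf1), against 4.28% and 20.6% of all genes. The median difference was -3.73 points. Irf9, the DNA-binding partner of Stat2, was the farthest, at 86.9% and 89.8% in WT and 48.5% and 54.4% in cKO. The remaining genes of the list, Abce1 and the receptor chain Ifnar2, overlapped between genotypes for both marks.

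The protein-coding genes most like each member with a gained region were taken by the smallest mean absolute difference in window coverage over the 8 WT and cKO libraries, as a description. Genes whose window overlapped that of any member, the members among them, and genes with no region in any cKO library were left out. For Oasl1 the nearest was Ifi44, 8.18 points away, with H3K36me3 over 0% and 0% in WT and 57.9% and 76.7% in cKO, followed by Ms4a4c and Gm10382. No gene came as near to Oasl1 as the nearest gene of each other member with a gained region, which was 2.22 to 4.55 points away. The 3 nearest, in order, were Brd2, Ifi209 and Daxx for Oas1g, Top2a, Ccnf and Arhgdia for Oas3, and Setd1b, Prpf38a and Aars for Oasl2. For Oas1a they were H3f3a, itself a target of the deletion, Xaf1 and Ctu2, for Oas1b Grpel2, Trim34a and Wdhd1, and for Oas1c Gbp3, H2-T22 and Cenpk.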

How the data were processed

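CUT&RUN reads of 25 bases, paired-end, were aligned by the authors to mm10 with Bowtie2, and regions were called per library, without pooling, with HOMER findPeaks in histone style against an IgG library (peak size 500 bp, minimum distance 1000 bp, 4-fold over the control, Poisson p 1e-04 over the control, per the file headers). The deposited lists give each region's start and end and a score column that is constant and was not used as signal. They hold no tag counts per region, so depth is known only per library. Here, coverage was the percentage of the window inside regions (1 bp overlap for calls), computed with Python 3.11.15, numpy 2.4.6 and pandas 2.3.3. The interval code was tested on simulated intervals. Members, lists and motifs were chosen with earlier results of these data known. Named genes were the 8 members, 4 cluster neighbours, a list of 10 pathway genes (other items of that list are not reported here) and, for each member with a gained region, the 3 genes nearest in coverage. H3.3-HA had its own control and mouse line and was compared with WT and cKO only by the overlap of regions. Sequences are from RefSeq and the GRCm38.p6 genome, whose chromosome names and lengths fit the lists. Alternatives were the gene body alone, 20 kb on both sides, regions of at least 1 kb, lists cut to an equal number, joining across gaps of 1 kb, an overlap of 500 bp and leaving out each library. Lists were cut to the length of the shortest one by keeping the widest regions, so narrow regions of the longer lists were dropped. Leaving out a library leaves 1 in its group, so a count is easier to reach. Shares over all genes were not computed for the alternatives.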

Additional observations from a re-analysis of the deposited data

How the results depend on the processing

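No paired analysis was possible because the results come from no test and the labels do not say whether equal replicate numbers share animals or days. The members with a gained H3K27ac region were 3 in place of 6 with the gene body only (Oas1a, Oas1b and Oasl2), to 3 with regions of at least 1 kb (Oas1g, Oasl1 and Oasl2) and to 3 with regions joined across gaps of up to 1 kb (Oas1b, Oas1c and Oas1g), and were 6 to 7 when a library was left out. The members with more H3K27ac coverage in both cKO libraries were 5 with regions of at least 1 kb, which left out Oas1a, Oas1b and Oas1c, and 7 with the gene body only, which left out Oas1c. Those with more H3K36me3 coverage were 5 in place of 6 with the gene body only, which left out Oas2, and 8 with 20 kb on both sides. With 20 kb on both sides, 1 member, Oasl1, had a lost H3K27ac region, Oasl2 joined Oasl1 for 2 members with a gained H3K36me3 region, and all 8 members had an H3.3-HA region in both libraries. Lists of equal number gave 2 members with a gained H3K36me3 region, Oasl1 and Oas1c, and leaving out a library gave 1 to 3, the 3 without cKO replicate 1 adding Oas1c and Oas1g. Members with a lost H3K36me3 region were 0 to 1 (Oas2 without WT replicate 1), and those with H3.3-HA were 4 to 8 when a library was left out, the 8 without H3.3-HA replicate 1, and 3 with regions of at least 1 kb, which left out Oas3. The cause was not tested. Of 72 differences recomputed per member for each mark, all for H3K27ac stayed above 0, the lowest 0.0346 points at Oas1c with regions of at least 1 kb, and 70 did for H3K36me3. The other 2 were -0.0646 at Oas1a without WT replicate 1 and -1.05 at Oas1b without cKO replicate 2, both members whose groups overlap.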
